A study of Saccharomyces cerevisiae with 8 samples.

Results

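The phosphate regulon of budding yeast was followed through 10 genes: the phosphate transporter genes PHO84 and PHO89, the acid phosphatase genes PHO5 and PHO3, the polyphosphate synthesis genes VTC1, VTC3 and VTC4, the regulator genes PHO81 and SPL2, and PHM6, a phosphate-responsive gene without an assigned activity. They were chosen by symbol among genes that read lower in stb3-null than in wild type, so the strain differences chose them and are given here as a description. The members were 10 of 5656 genes on the array, read by 11 of its 9275 probe sets, because VTC4 had 2. All 10 passed the filter on low signal, which kept 5343 genes, and all 10 would have passed it on the stb3-null arrays alone.

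The study asked how loss of STB3, which encodes a protein that binds a promoter motif of ribosome biogenesis genes, alters the response to glucose. The 4 groups, with 2 Affymetrix arrays each (replicates A and B), were stb3-null and wild type 10 min after addition of 2% glucose, and stb3-null and wild type after 3 days in rich medium (YPD) with no addition. Wild type was BY4742, a haploid laboratory strain. How STB3 was deleted, whether stb3-null was 1 clone, and whether replicates were separate cultures are not given in the sources used here. Both conditions shared the 3 days of growth, and the labels name no change of phosphate in the medium.

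When phosphate is scarce, the inhibitor Pho81 holds back the cyclin-dependent kinase Pho80-Pho85. The transcription factor Pho4 then stays in the nucleus and, with Pho2, switches on genes that take up, release or store phosphate. High-affinity import (Pho84 and Pho89), secreted acid phosphatase (Pho5) and polyphosphate synthesis in the vacuole membrane (the VTC complex) are the main outputs of this pathway.

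Values are log2 signals as the authors deposited them, so that a difference of 1 is a doubling. STB3 (YDR169C) read 2.50 and 2.82 in stb3-null after glucose, against 8.42 and 7.62 in wild type, and 3.30 and 2.90 in stb3-null at 3 days, against 9.23 and 8.48 in wild type, so that every array fitted its strain label. The alpha-factor gene MF(ALPHA)1 was high on all arrays (11.09 to 13.20), and the a-cell genes STE2 and BAR1 stayed at or below 6.01 and 5.63. The wild-type replicates stood further apart than those of stb3-null. Over all tested genes the standard deviation of B minus A was 0.278 in stb3-null after glucose, against 0.548 in wild type, and 0.261 in stb3-null at 3 days, against 0.577 in wild type. The median of B minus A over the 10 members was 0.03 in stb3-null after glucose, against 0.39 in wild type, and -0.12 in stb3-null at 3 days, against 0.54 in wild type. Each strain difference is therefore also given without both wild-type B arrays. In RNA from whole cultures, fewer cells that express a gene and less RNA per cell cannot be told apart.

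Within 10 min of glucose, 6 of the 10 genes rose and 1 fell. PHO84, PHO3, VTC1, VTC3, VTC4 and PHM6 rose between 2.41-fold and 3.68-fold as a mean of both strains, PHO89 fell to 0.435 of its level at 3 days, and SPL2, PHO5 and PHO81 did not pass. The value tested is the mean of the glucose responses of both strains, a contrast that is orthogonal to the strain differences and was therefore tested (limma, Benjamini-Hochberg over all genes, adjusted p below 0.05). Of all genes tested, 39.8% were called higher and 21.1% called lower. The median of the 10 members was 1.29 on the log2 scale, against 0.24 for all genes. Other scalings moved the median of all genes to between -0.26 and 0.14, and the same count of 6 members was called higher under each of them. With a common trimmed mean the split over all genes was 1131 higher to 2165 lower, in place of 2128 to 1128, and with quantile normalisation it was 1663 to 1458.

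**Figure D1:**
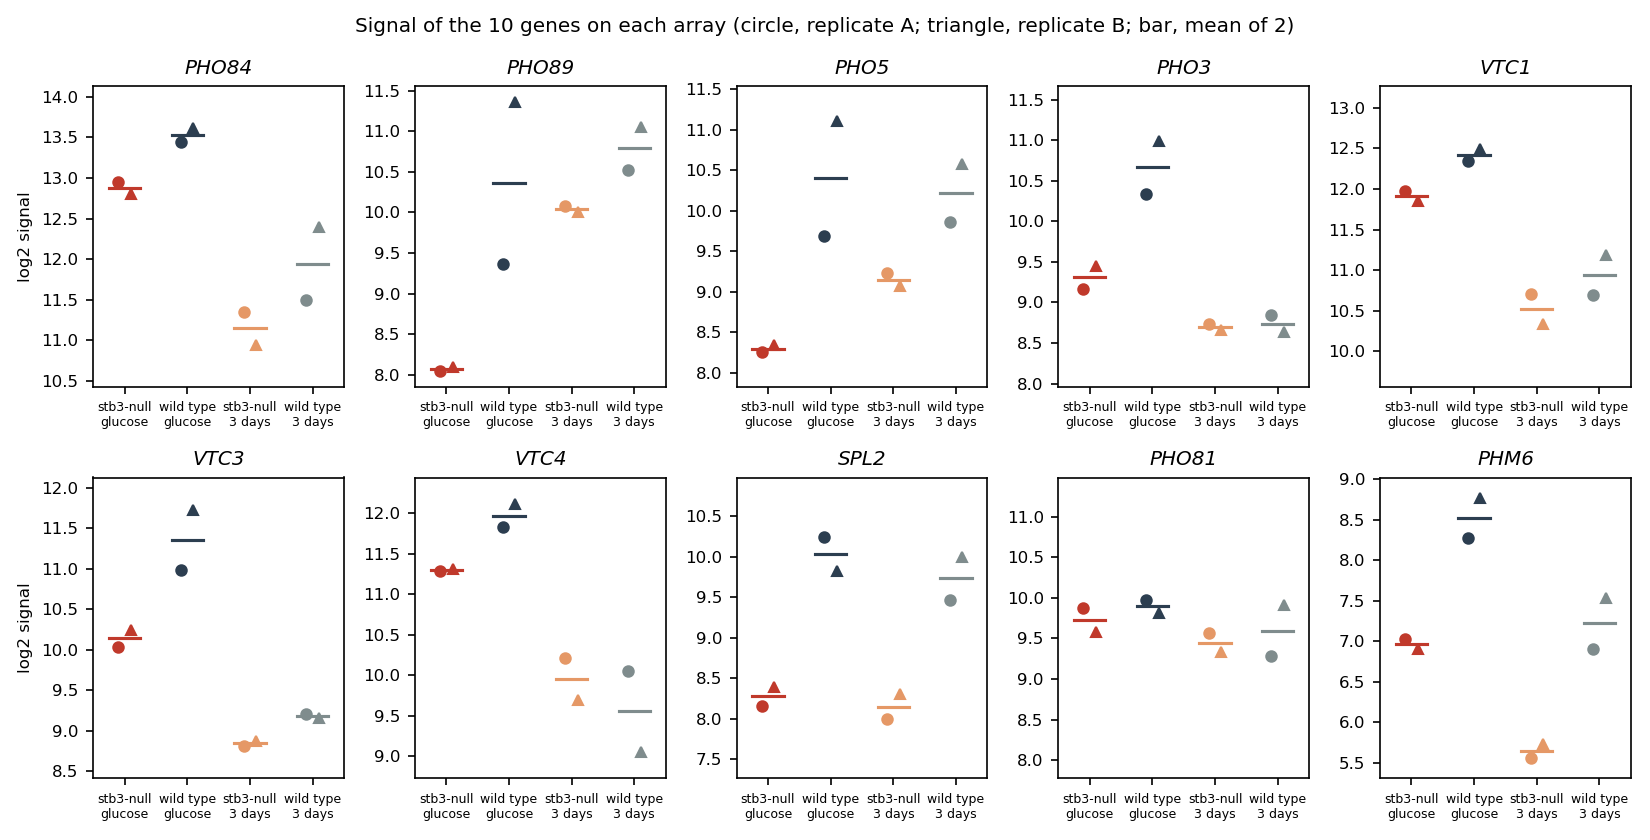
Log2 signal of each of the 10 genes on each of the 8 arrays, with replicate A as a circle, replicate B as a triangle and the mean of 2 as a bar; every panel spans the same log2 range, and VTC4 is shown by the probe set with the higher mean. PHO84, PHO3, PHM6 and the VTC genes stand higher after glucose in both strains, and PHO89 and PHO5 stand lowest in stb3-null after glucose.

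The high-affinity transporter gene PHO84 (YML123C), which encodes a proton-coupled phosphate importer, read 12.95 and 12.80 in stb3-null after glucose, against 13.44 and 13.62 in wild type. At 3 days it read 11.35 and 10.94 in stb3-null, against 11.50 and 12.39 in wild type. All 4 arrays after glucose lay above all 4 arrays at 3 days, and the stb3-null arrays lay below the wild-type arrays in both conditions. As a mean of both strains PHO84 rose by 1.66 after glucose (SE 0.24, adjusted p = 2.38e-04), with 1.73 in stb3-null and 1.59 in wild type. With quantile normalisation the rise was 0.87. PHO84 was lower in stb3-null by 0.66 after glucose (SE 0.33) and by 0.80 at 3 days (SE 0.33), where the difference was -0.36 without the wild-type 3-day array B and -1.25 without array A.

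PHO89 (YBR296C), the gene of the sodium-coupled importer, went the other way. It read 8.05 and 8.09 in stb3-null after glucose, against 9.37 and 11.36 in wild type, and 10.08 and 10.01 in stb3-null at 3 days, against 10.52 and 11.06 in wild type. The stb3-null replicates after glucose were nearly equal and were the lowest arrays of the series for this gene, whereas the wild-type replicates after glucose lay 1.99 apart and spanned the wild-type values at 3 days. PHO89 fell by 1.20 as a mean of both strains (SE 0.36, adjusted p = 0.0168), with -1.98 in stb3-null and -0.43 in wild type. That call was lost without the stb3-null 3-day array A (adjusted p = 0.0559) or B (adjusted p = 0.0527), and without the wild-type glucose array A the fall was 0.70. After glucose the stb3-null signal was 20.4% of wild type, a log2 difference of -2.30 (SE 0.52). Its size rests on the spread of the wild-type replicates, since it was -3.29 without the wild-type glucose array A and -1.30 without array B. At 3 days the difference was -0.75, and -0.48 without the wild-type 3-day array B.

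The acid phosphatase genes PHO5 (YBR093C) and PHO3 (YBR092C) lie next to each other on the chromosome. Pho5 is the secreted enzyme that phosphate represses, whereas Pho3 is known as the constitutive enzyme, which is repressed by thiamine. PHO5 read 8.26 and 8.34 in stb3-null after glucose, against 9.69 and 11.11 in wild type, and 9.23 and 9.07 in stb3-null at 3 days, against 9.86 and 10.58 in wild type. Like PHO89, it was lowest in stb3-null after glucose, where both arrays lay below all the others, and its wild-type replicates after glucose were 1.42 apart. The glucose response of PHO5 averaged -0.34 and did not pass (SE 0.30, adjusted p = 0.349), with -0.85 in stb3-null and 0.18 in wild type. It was called lower with a common trimmed mean at -0.83 (adjusted p = 0.042), and also without the wild-type glucose array B at -0.69 (adjusted p = 0.0176) and without both wild-type B arrays at -0.51 (adjusted p = 0.00776). Leaving out the wild-type glucose array A instead turned the value to 0.02 (adjusted p = 0.938). PHO5 in stb3-null was at 23.3% of wild type after glucose, a log2 difference of -2.10 (SE 0.42), and at 47.6% at 3 days, a log2 difference of -1.07 (SE 0.42). The first was -2.81 without the wild-type glucose array A and -1.39 without array B. The second was -0.71 without the wild-type 3-day array B.

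PHO3 read 9.17 and 9.45 in stb3-null after glucose, against 10.34 and 10.99 in wild type. At 3 days all 4 arrays lay close together, at 8.74 and 8.66 in stb3-null, against 8.84 and 8.64 in wild type. The strains thus overlapped before glucose and did not overlap after it. PHO3 rose by 1.27 as a mean of both strains (SE 0.18, adjusted p = 2.77e-04), with 0.61 in stb3-null and 1.93 in wild type. With a common trimmed mean the rise was 0.78, and it still passed (adjusted p = 0.00741). After glucose its stb3-null signal was 39.1% of wild type, a log2 difference of -1.36 (SE 0.26), or -1.03 without the wild-type glucose array B. At 3 days the difference was -0.04, with 0.06 without the wild-type 3-day array A and -0.14 without array B. The coding sequences of this pair are known to be very similar. The extent to which either probe set reads RNA of the other gene was not tested. In stb3-null, PHO3 was higher and PHO5 lower on both arrays after glucose than on both at 3 days, whereas in wild type after glucose array B was above array A for both genes, by 0.65 for PHO3 and 1.42 for PHO5.

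The VTC genes encode the vacuolar transporter chaperone complex, which makes polyphosphate from ATP and moves it into the vacuole. VTC4 (YJL012C) encodes the catalytic subunit, VTC3 (YPL019C) one of a pair of alternative partner subunits, and VTC1 (YER072W) a small membrane subunit. All 3 genes rose after glucose. VTC4 read 11.29 and 11.31 in stb3-null after glucose, against 11.83 and 12.11 in wild type, and 10.22 and 9.69 in stb3-null at 3 days, against 10.05 and 9.06 in wild type. VTC3 read 10.04 and 10.24 in stb3-null after glucose, against 10.98 and 11.73 in wild type, and 8.81 and 8.88 in stb3-null at 3 days, against 9.21 and 9.16 in wild type. VTC1 read 11.97 and 11.85 in stb3-null after glucose, against 12.35 and 12.49 in wild type, and 10.70 and 10.34 in stb3-null at 3 days, against 10.69 and 11.18 in wild type. In each case every array after glucose lay above every array at 3 days, and after glucose both stb3-null arrays lay below both wild-type arrays.

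VTC4 rose by 1.88 as a mean of both strains (SE 0.24, adjusted p = 1.41e-04), with 1.35 in stb3-null and 2.42 in wild type. The other VTC4 probe set gave 1.40 (1.07 in stb3-null and 1.73 in wild type). VTC3 rose by 1.73 (SE 0.19, adjusted p = 5.84e-05), with 1.30 in stb3-null and 2.17 in wild type. VTC1 rose by 1.44 (SE 0.19, adjusted p = 1.73e-04), with 1.39 in stb3-null and 1.49 in wild type, by 0.71 after quantile normalisation and by 0.95 on a common trimmed mean. The strain differences after glucose were -0.67 for VTC4, -1.22 for VTC3 and -0.51 for VTC1, which puts stb3-null at 62.9%, 43.1% and 70.2% of wild type. That of VTC3 was -0.84 without both wild-type B arrays and -1.59 without the wild-type glucose array A. At 3 days VTC4 was the 1 member with a positive difference, 0.40, which was -0.10 without the wild-type 3-day array B, and its other probe set gave -0.18. VTC3 was lower by 0.34 at 3 days and VTC1 by 0.42, the value for VTC1 being -0.17 without the wild-type 3-day array B and -0.66 without array A.

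SPL2 (YHR136C), whose small product holds back low-affinity phosphate transport, had a strain difference of similar size in both conditions. It read 8.16 and 8.39 in stb3-null after glucose, against 10.24 and 9.82 in wild type, and 8.0 and 8.30 in stb3-null at 3 days, against 9.46 and 10.00 in wild type. The 4 stb3-null arrays lay between 8.0 and 8.39 and the 4 wild-type arrays between 9.46 and 10.24, whatever the condition. The stb3-null signal was 29.6% of wild type after glucose, a log2 difference of -1.76 (SE 0.26), and 33.4% at 3 days, a log2 difference of -1.58 (SE 0.26). Without both wild-type B arrays these were -1.97 and -1.31. The glucose response did not pass (0.21, SE 0.19, adjusted p = 0.343), with 0.13 in stb3-null and 0.30 in wild type, and it was -0.28 with a common trimmed mean and 0.45 without both wild-type B arrays (adjusted p = 0.0159).

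PHM6 (YDR281C), a gene known to respond to phosphate, read 7.03 and 6.90 in stb3-null after glucose, against 8.27 and 8.77 in wild type, and 5.56 and 5.73 in stb3-null at 3 days, against 6.90 and 7.54 in wild type. The stb3-null signals after glucose thus reached only the wild-type range of 3 days. PHM6 rose by 1.31 as a mean of both strains (SE 0.18, adjusted p = 2.19e-04), with 1.32 in stb3-null and 1.30 in wild type. Its stb3-null signal was 34.0% of wild type after glucose, a log2 difference of -1.56 (SE 0.26), and 33.6% at 3 days, a log2 difference of -1.58 (SE 0.26). Without both wild-type B arrays the differences of PHM6 were -1.31 and -1.26. The stb3-null signals at 3 days lay below the filter level of 5.80, so the sizes that use them are uncertain. With a pseudocount of 20% of the mean trimmed mean signal, the difference at 3 days was -0.70, that after glucose -1.02 and the rise 0.71, and with a common trimmed mean the rise was 0.82.

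PHO81 (YGR233C), the gene of the kinase inhibitor at the top of the pathway, had the smallest strain difference of the members after glucose. It read 9.87 and 9.58 in stb3-null after glucose, against 9.98 and 9.82 in wild type, and 9.57 and 9.33 in stb3-null at 3 days, against 9.28 and 9.91 in wild type. The strains overlapped in both conditions. The differences were -0.18 after glucose (SE 0.27) and -0.15 at 3 days (SE 0.27), and at 3 days it was 0.17 without the wild-type 3-day array B. PHO81 was the 1 member that overlapped between the strains after glucose, and its place in a list chosen as lower in stb3-null therefore rests on small differences. Its glucose response was 0.29 (SE 0.19, adjusted p = 0.207), and -0.20 with a common trimmed mean. It was called higher without the wild-type 3-day array B (0.45, adjusted p = 0.0474) and without both wild-type B arrays (0.49, adjusted p = 0.0195).

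**Figure D2:**
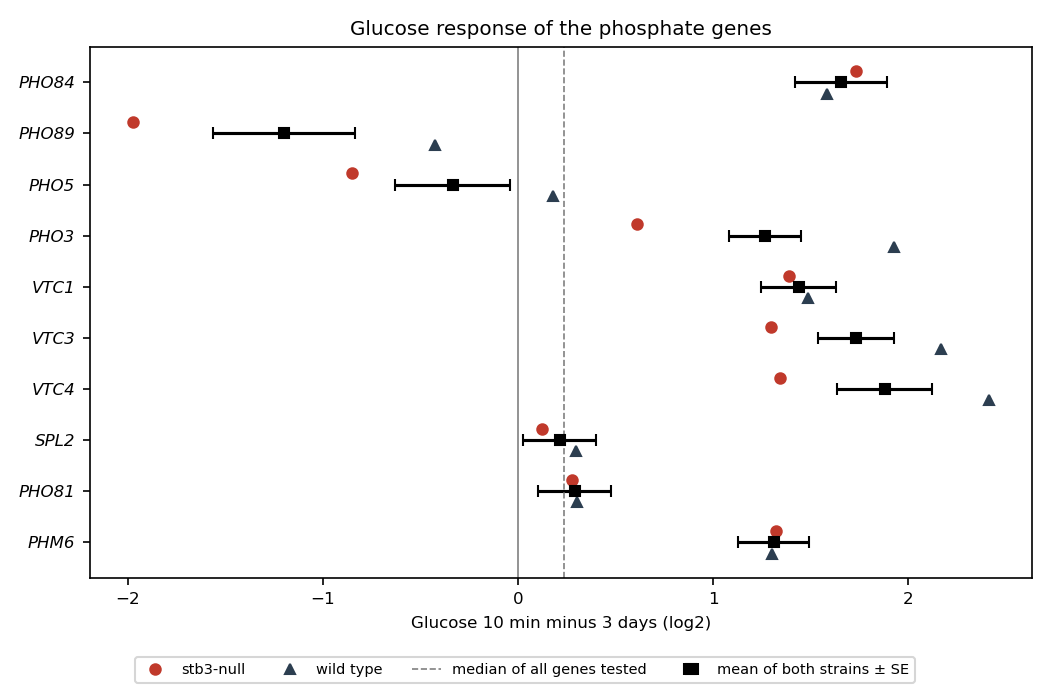
Log2 difference between 10 min after glucose and 3 days for each gene, with the mean of both strains as a square (bar, SE of the fit), stb3-null as a circle and wild type as a triangle; the dashed line is the median of all genes tested, 0.24. The values of both strains lie close together for PHO84, VTC1, SPL2, PHO81 and PHM6 and furthest apart for PHO89.

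Set side by side, the strain differences of the 10 members had a median of -1.29 after glucose and -0.58 at 3 days, against 0.04 and 0.03 for all genes. All 10 were negative after glucose and 9 of 10 at 3 days, a direction that the choice of members fixes. Both stb3-null arrays lay below both wild-type arrays for 9 of the 10 members after glucose, where 20.3% of all genes did, and for 6 of 10 at 3 days, where 16.9% did. No member was called lower by limma in either condition. Only 1 gene of all, 0.0187%, was called lower in each condition, namely STB3. At an unadjusted p below 0.05, 246 genes were lower after glucose and 191 at 3 days. The counts of members called lower rest on the values that chose them and are given only to show how they vary with the wild-type replicates. Without both wild-type B arrays, 5 members were called lower after glucose (PHO89, SPL2, PHM6, PHO5 and PHO3) among 96 genes, and SPL2 and PHM6 at 3 days among 118 genes. A fit that leaves 1 array in a group assumes that this array varies like the groups that keep 2, although the wild-type replicates spread more than those of stb3-null, and this holds for each fit named here. Without the wild-type glucose array A the 5 members called lower after glucose were PHO89, PHM6, PHO5, PHO3 and VTC3, among 35 genes. Without the wild-type 3-day array A, SPL2 and PHM6 were called lower at 3 days, among 45 genes. Without the wild-type 3-day array B, SPL2 and PHM6 were called lower after glucose, among 4 genes.

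**Figure D3:**
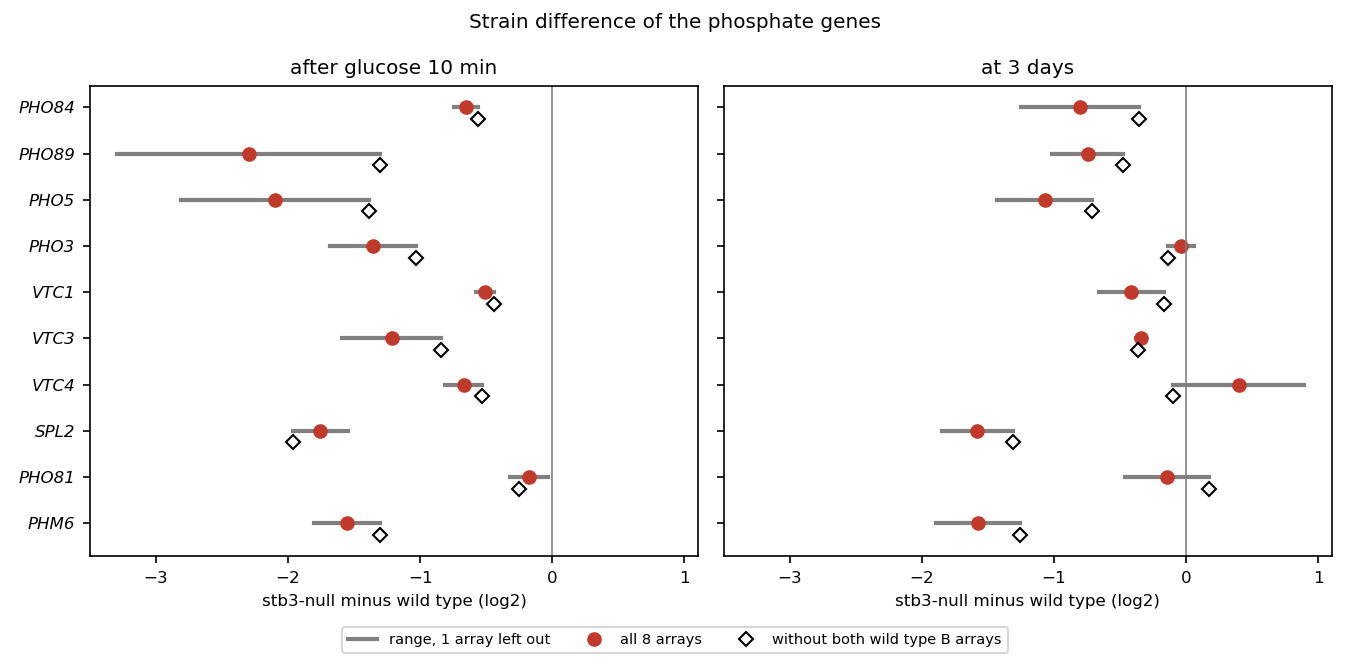
Log2 difference stb3-null minus wild type after glucose (left) and at 3 days (right), with the value from all 8 arrays as a filled circle, the range over fits that leave out 1 array as a grey bar, and the value without both wild-type B arrays as an open diamond. After glucose every bar lies below 0, and PHO89 and PHO5 have the widest bars; at 3 days the bars of PHO3, VTC4 and PHO81 span 0.

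The difference between the glucose responses, stb3-null minus wild type, was -1.55 for PHO89 (SE 0.73), -1.32 for PHO3 (SE 0.37), -1.07 for VTC4 (SE 0.49), -1.03 for PHO5 (SE 0.59) and -0.88 for VTC3 (SE 0.39). For the other 5 members it lay between -0.18 and 0.15. These values are not independent of the choice of members and carry no test. No gene of all was called for this difference by limma (0 of 5343, 0%), whereas 370 genes had an unadjusted p below 0.05. Without both wild-type B arrays the difference was -0.83 for PHO89, -0.89 for PHO3, -0.44 for VTC4, -0.68 for PHO5, -0.48 for VTC3, -0.66 for SPL2 and -0.43 for PHO81, and it lay between -0.27 and -0.05 for PHO84, VTC1 and PHM6. Leaving out only the wild-type glucose array B gave -0.56 for PHO89 and -0.32 for PHO5.

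The rest of the pathway was read from lists of 42 other genes, of which 40 had a probe set of their own and 39 passed the filter. PHO11 and PHO12, which encode acid phosphatases closely related to Pho5, had none and are not analysed here. These are the genes that the choice of members left over. In the strain comparisons none of the 39 was called in either direction, and 5 after glucose and 4 at 3 days had an unadjusted p below 0.05. Of all 5343 genes tested, 516 after glucose and 466 at 3 days had such a p in either direction. These counts of the 39 are therefore not read as a difference between the strains. With all 8 arrays the largest strain difference of the 39 in size was that of PHM7, a gene named for its response to phosphate, which was higher in stb3-null. It read 9.04 and 8.86 in stb3-null after glucose, against 7.99 and 7.19 in wild type, a difference of 1.36 that did not pass (adjusted p = 0.252). It was called without the wild-type glucose array A (1.76, adjusted p = 0.0297) and without both wild-type B arrays (0.96, adjusted p = 0.0269). In the other direction the largest difference was that of GIT1, at -1.08 after glucose (limma, adjusted p = 0.459) and -0.80 at 3 days (adjusted p = 0.634). Neither passed, and the wild-type replicates of GIT1 lay 1.12 apart after glucose and 1.09 apart at 3 days. The median difference of the 39 was 0.02 after glucose and 0.02 at 3 days. After glucose, 15 of the 39 rose and 10 fell as a mean of both strains, beside 39.8% and 21.1% of all genes.

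Of 6 pathway regulators 3 fell and 1 rose. PHO85, the kinase gene, fell by 0.85 (SE 0.27, adjusted p = 0.0218), PHO80, the cyclin gene, by 0.61 (SE 0.14, adjusted p = 0.00462) and PHO2, the gene of the partner of Pho4, by 0.69 (SE 0.15, adjusted p = 0.00266). The call of PHO85 was lost without the wild-type 3-day array A, the wild-type glucose array A, the stb3-null 3-day array B or the stb3-null glucose array A (adjusted p up to 0.0954). PHO80 and PHO2 fell by 1.10 and 1.18 with a common trimmed mean. The strain difference of PHO85 after glucose was 0.395 (SE 0.387, limma, adjusted p = 0.778) and did not pass. It was 1.015 without both wild-type B arrays and -0.225 without the wild-type glucose array A. CBF1, the gene of a factor that binds a motif much like that of Pho4, rose by 0.97 (adjusted p = 2.34e-04), and by 0.48 with a common trimmed mean. PHO4 itself read 9.39 and 9.20 in stb3-null after glucose, against 9.65 and 10.02 in wild type, and 8.77 and 8.98 in stb3-null at 3 days, against 9.48 and 9.64 in wild type. Its strains did not overlap, with differences of -0.54 after glucose (SE 0.23, adjusted p = 0.502) and -0.69 at 3 days (SE 0.23, adjusted p = 0.449), neither of which passed, and its glucose response of 0.35 did not pass (adjusted p = 0.0876).

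Of 7 other phosphate transport genes 5 rose and none fell. PHO90 and PHO91, the genes of a plasma membrane and a vacuolar phosphate transporter, rose by 0.95 (SE 0.19, adjusted p = 0.00188) and 0.92 (SE 0.16, adjusted p = 7.18e-04), or by 0.46 (adjusted p = 0.0629) and 0.43 with a common trimmed mean. PHO87, the low-affinity transporter gene whose product Spl2 controls, was at 0.37 and did not pass (adjusted p = 0.157). It was higher in stb3-null by 0.87 at 3 days without passing (limma, adjusted p = 0.449). That difference was 1.33 without the wild-type 3-day array A and 0.415 without array B. SND3, also known as PHO88, rose by 2.82 (SE 0.18, adjusted p = 2.60e-06).

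Among other phosphatases, 2 of 5 rose and 2 fell. PHO13, for a metabolite phosphatase, rose by 2.04 (SE 0.20, adjusted p = 2.28e-05). PHO8, the vacuolar alkaline phosphatase gene, fell by 0.50 (SE 0.15, adjusted p = 0.0167), by 0.99 with a common trimmed mean, and its call was lost without the stb3-null 3-day array A or B or the stb3-null glucose array B (adjusted p up to 0.0928). Of 6 other polyphosphate genes 3 rose and none fell. VTC2, which encodes the alternative partner to Vtc3, was not one of them: it read between 9.31 and 9.84 on the 8 arrays (0.15, SE 0.16, adjusted p = 0.416). Of 6 inositol phosphate genes 2 rose and 2 fell, and of 6 chromatin regulators of PHO5 1 rose and 1 fell. PHM7 fell by 2.50 (adjusted p = 8.59e-06), PHO23, of a histone deacetylase complex, by 1.38 (adjusted p = 1.73e-05), and GPP2, for glycerol-phosphatase, rose by 3.49 (adjusted p = 2.24e-06).

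**Figure D4:**
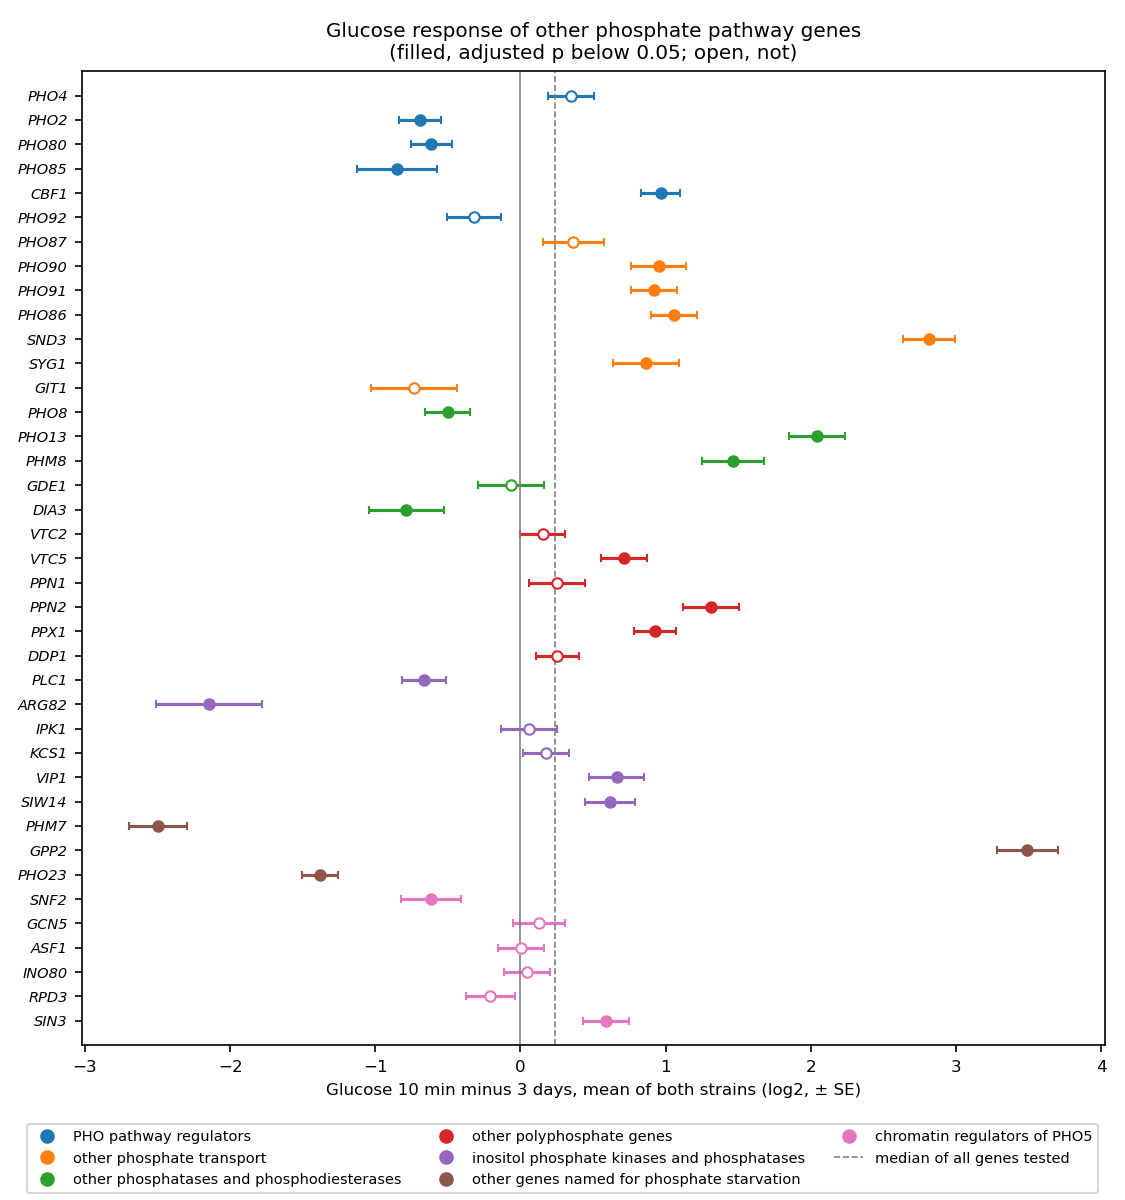
Log2 difference between 10 min after glucose and 3 days, as a mean of both strains with the SE of the fit, for the 39 other phosphate pathway genes that passed the filter, coloured by list; filled points had an adjusted p below 0.05, and the dashed line is the median of all genes tested, 0.24. The calls lie on both sides of 0, with GPP2 and SND3 highest and PHM7 lowest.

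Genes beside the members on the chromosomes were read as well. Of 18 neighbours that are not members 15 were tested, and none was called in either strain comparison. At most 1 gene of all 5343 was called in each direction there, so this count cannot show whether position matters. Their median strain difference was -0.17 after glucose and 0.04 at 3 days. After glucose 7 of the 15 rose and 1 fell, beside 39.8% and 21.1% of all genes (median 0.26 as a mean of both strains).

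By its profile over the 8 arrays, PHO84 was most like PBP2 (r = 0.993), BNA4 (0.990), MHF2 (0.983), DFR1 (0.983) and RFC3 (0.983) among genes outside the members. These are Pearson correlations of log2 values over 8 arrays in 4 groups, so they mostly follow the group means, and they do not weigh size: PBP2 ranged only from 5.91 to 6.68, whereas PHO84 ranged from 10.94 to 13.62. VTC1 was the closest member (r = 0.990, rank 3 of all genes). VTC3 (0.913), PHM6 (0.884) and PHO3 (0.829) followed at ranks 295, 561 and 1052. PHO81 (0.812), VTC4 (0.787) and SPL2 (0.499) came at ranks 1198, 1370 and 2455. Apart from VTC1, many genes outside the members were thus closer to PHO84 than the members were. PHO5 (0.226) and PHO89 (-0.17) had profiles unlike that of PHO84 and like each other (r = 0.919). Correlations between members include the strain differences that chose them, so they are only a description. For PHO89 and PHO5 they also include the gap between the wild-type replicates after glucose, where array B was above array A by 1.99 and 1.42.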

How the data were processed

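The data were 8 arrays of total RNA from yeast cultures, 2 in each of 4 groups that the sample titles define. The authors deposited 1 log2 signal per probe set and array. The submitters' processing notes name MAS5 without a version or role, and how arrays were scaled to each other is not stated there. Base 2 was inferred from the range of the values. Signals were used as deposited, with no pseudocount. Array medians lay between 7.53 and 7.69. Arrays hold no counts, so their number limits the precision.

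Gene symbols came from the array platform's table, updated through RefSeq genes of assembly R64: 6504 probe sets carried 1 gene, 328 several and 2443 none, and only those with 1 gene were tested. All 10 members matched, and no symbol changed. The probe set with the highest mean stood for each of the 315 genes with several. The filter kept genes whose mean antilog signal reached 10% of the mean 2% trimmed mean (a log2 signal of 5.80). Fits used limma 3.58.1 in R 4.3.3, with a mean per group, all 8 arrays, an empirical Bayes trend and Benjamini-Hochberg adjustment over the 5343 genes (4 residual and 5.56 prior degrees of freedom, two-sided). Only the glucose response averaged over both strains was tested on simulated data, in which each gene had the same spread in all groups. P-values set a difference against the spread of these samples, which may be technical spread alone. That spread was estimated for each gene over all 4 groups together, although the wild-type replicates stood further apart than those of stb3-null. An exact permutation test of 2 arrays against 2 cannot go below p = 0.333.

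The members and lists were chosen with earlier results of these data known. Named genes were all members, STB3, 11 listed pathway genes whatever their values (of which PHO11 and PHO12 had no probe set of their own), up to 6 further listed genes called with the smallest adjusted p per comparison, and the 5 genes most like PHO84. Alternatives were 3 scalings, 2 filters, a pseudocount, the mean of all probe sets, no trend, array weights, a replicate block, the compared groups alone and the omission of each array. The fit without both wild-type B arrays and the naming of GIT1 were chosen after seeing the data.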

Additional observations from a re-analysis of the deposited data

Results flagged for a closer look

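PHO92, a listed gene outside the members whose product binds methylated RNA, gave higher signals after glucose than at 3 days on both stb3-null arrays, and lower ones on both wild-type arrays. It read 5.83 and 5.70 in stb3-null after glucose, against 5.63 and 5.58 in wild type, and 5.67 and 5.62 in stb3-null at 3 days, against 5.99 and 6.73 in wild type. The difference between the responses was 0.88 (limma, SE 0.37, adjusted p = 0.713) and did not pass. PHO92 passed the filter only through wild type at 3 days and would not have passed on the stb3-null arrays alone. The stb3-null response was 0.12, between signals at about the filter level of 5.80, so no direction is read from it.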

How the results depend on the processing

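The rises of PHO84, PHO3, VTC1, VTC3 and VTC4 passed under all 19 other settings and that of PHM6 under all 18 that kept it, and the fall of PHO89 passed under 17 of 19. With a common trimmed mean, 1131 genes were called higher and 2165 lower after glucose, 2 of those lower being members (PHO89 and PHO5). The stricter filter at 40% left 725 lower, and it removed STB3, so that 0 genes were lower in stb3-null in either condition; a pseudocount of 20% also gave 0 after glucose. With array weights 4 genes were lower in stb3-null after glucose, 3 of them members (SPL2, PHM6 and PHO5). Counts of members called lower in stb3-null, here and below, rest on the values that chose the members. They are a description and no test. Without both wild-type B arrays, 2 members were lower after glucose as a mean of both strains, 118 genes were lower in stb3-null at 3 days with 2 members among them, 96 after glucose with 5 members, and 33 genes were called for the difference between the responses. Over the fits that each leave out 1 array, between 0 and 2 members were called lower after glucose as a mean of both strains. In stb3-null, 1 to 45 genes and 0 to 2 members were called lower at 3 days, and 1 to 35 genes and 0 to 5 members after glucose. For the difference between the responses 0 to 5 genes were called. The high ends came from leaving out the wild-type 3-day array A (45 and 5 genes) or the wild-type glucose array A (35 genes). The cause of these shifts was not tested. Whether arrays of the same letter were paired is not known. B minus A correlated across groups between -0.18 and 0.22, with 0.22 between the wild-type groups and 0.13 between the stb3-null groups. These correlations cannot settle it. With the replicate block, 2120 genes were higher and 1129 lower after glucose, with 6 and 1 members, and no call of a member changed. The 2 arrays per group limit what could be called between the strains.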
